A study of Mus musculus with 16 samples.

Results

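Very long annotated isoforms of the mouse cortex and striatum were taken from PacBio Iso-seq, in which full-length cDNA is read in 1 piece. An isoform was included when TALON, the program that matches each read to a transcript by its splice junctions, assigned it to an annotated transcript of an annotated gene (listed as known), with at least 2 exons, a listed length of at least 5000 nucleotides (nt) and at least 10 reads summed over the 16 samples. There were 1028 such isoforms in 947 genes, among 14932 known multi-exon isoforms with at least 10 reads at any length and 698596 isoforms of any class with at least 1 read. The isoforms were selected on annotation, listed length and read count. Reads entered the choice only through the sum over all samples, so the number of reads per isoform is a description of what was chosen. Deeper samples weigh more in that sum. Of the isoforms, 27 had no cortical read and 0 had no striatal read.

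The groups were male R6/2 mice and male non-transgenic (NT) mice, both 3 months old, with 4 samples of the cortex and 4 of the striatum for each genotype. R6/2 mice (strain B6CBA-Tg(HDexon1)62Gpb/3J) carry exon 1 of mutant human HTT, the gene of Huntington's disease, as a transgene and keep their own Htt gene, so the model holds a fragment of the human protein. Each sample had 1 file of counts except 4 striatal samples (NT 1, NT 2, R6/2 2 and R6/2 3), which had 2 that their labels call replicates and that were summed here. The labels do not say whether a cortical and a striatal sample of the same number came from 1 mouse, nor whether samples were extracted separately, and p values measure the spread between these samples.

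A long messenger RNA can be long in 2 ways. It can hold a long coding part, spread over many exons, or it can hold a long 3′ untranslated region (3′UTR), which follows the stop codon, usually lies in the last exon and carries binding sites for microRNAs and RNA-binding proteins. Brain transcripts are known for long 3′UTRs. Where a 3′UTR ends is set by polyadenylation, which is directed by a hexamer, most often AATAAA or ATTAAA, a short way before the cleavage site. A gene with several such hexamers can make transcripts of the same exons with different ends.

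The listed length of a known isoform is that of the annotation and not that of its reads. A read joins a known isoform by its splice junctions, so a transcript that stops early in the last exon can be counted under an isoform of far greater length. The sequences of 4 isoforms, from GENCODE M21 transcripts on mm10, show where the first AATAAA after the stop codon lies and, for Rps15a and Cdc37, the annotated end, with the hexamer in capitals. Each is a stretch of 30 bases inside the last exon, written 5′ to 3′ on the transcript's strand.
Rps15a, first AATAAA after the stop codon, chr7:118109070-118109099, minus strand: acgtaaagcataAATAAAaagcctttgtgg
Rps15a, annotated end, chr7:118104372-118104401, minus strand: tgAATAAAataaagcattttttttaaaacc
Cdc37, first AATAAA after the stop codon, chr9:21139436-21139465, minus strand: gcaacaatgtccAATAAAcagttccaggtg
Cdc37, annotated end, chr9:21133222-21133251, minus strand: taagccccaAATAAActtgccttctgtgaa
D10Wsu102e, first AATAAA after the stop codon, chr10:83368802-83368831, plus strand: ttgtcaaaaatgAATAAAttctatttaaac
Nedd4, first and only AATAAA after the stop codon, chr9:72749809-72749838, plus strand: ctcaattccacaAATAAAgttctattctga

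In Rps15a, which codes for a protein of the small ribosomal subunit, the first AATAAA began 13 nt after the stop codon and its window ended at position 481 of the 5179 nt of isoform ENSMUST00000131374. The unannotated isoforms of Rps15a with the same number of exons, whose lengths come from reads, had a median length of 481 nt. In Cdc37, a co-chaperone of Hsp90, the first AATAAA began 355 nt after the stop codon and its window ended at position 1637 of 7851 nt. Unannotated isoforms of 8 exons had a median length of 1585.5 nt over 20 isoforms. The longest unannotated isoform of Cdc37 was 2741 nt. D10Wsu102e held the longest listed isoform (123179 nt, of which 122586 nt are 3′UTR) and had 46 AATAAA in that region, the first 2892 nt after the stop codon. Its longest unannotated isoform was 3845 nt, and 3 with the same number of exons had a median of 2402 nt. Nedd4, a ubiquitin ligase, had a single AATAAA in its 3′UTR, which began 32 nt before the annotated end. Its longest unannotated isoform reached 4607 of 5499 nt, and 11 with the same number of exons had a median of 2796 nt. The length of each read counted under these names is not in the count files.

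Over the 881 very long isoforms with the same length in GENCODE M21 and a complete coding part, AATAAA lay within the last 40 bases in 70.4%, and AATAAA or ATTAAA in 83.4%. Among 10003 shorter known isoforms with at least 10 reads these shares were 58.8% and 73.0%. The first AATAAA after the stop codon lay at a median of 1214 nt in the very long isoforms and 465 nt in the shorter ones, and within 1000 nt in 42.2% and 57.8%. Only the transcript strand was searched, and a match describes letters, not a site that is used.

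The very long isoforms were long mainly in the 3′UTR. Their median coding part was 1701 nt and their median 3′UTR 4115 nt, against 1065 nt and 743 nt in 10010 shorter known isoforms. The 3′UTR took more than 50% of the length in 708 of 881 isoforms (80.4%), against 31.1% of the shorter ones. The last exon was the longest exon in 864 (98.1%), against 85.4%. They had a median of 10 exons and the shorter isoforms 7. The exons between the first and the last, which a read must cross to be matched by all junctions, summed to a median of 1214 nt and were under 1000 nt in 361 isoforms and at least 4000 nt in 10. The coding part was under 2000 nt in 518 isoforms and at least 5000 nt in 7.

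A few isoforms were long between their outer exons. Ift172, a subunit of the transport machinery of cilia, had the longest inner exons (5121 nt in 48 exons), with 16 reads. Cltc, the heavy chain of clathrin, followed with 4861 nt in 32 exons and 66 reads. Nisch, which codes for nischarin, had 4075 nt in 21 exons and 138 reads. The longest coding part, 8094 nt in the zinc finger gene Zfp292 with 376 reads, lies mostly outside the inner exons, which sum to 852 nt over 8 exons. Nes, the intermediate filament gene of neural progenitors, was of the same kind, with a coding part of 5592 nt, inner exons of 199 nt and 60 reads.

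Which annotated long isoforms were read went with the inner exons more than with the listed length. GENCODE M21 holds 5880 protein-coding multi-exon isoforms of at least 5000 nt in its own lengths. At least 10 reads were found for 35.8% of the 1229 with inner exons under 1000 nt, 32.4% at 1000 to under 2000 nt, 23.4% at 2000 to under 3000 nt, 7.38% at 3000 to under 4000 nt, 1.48% at 4000 to under 5000 nt and 0.164% (2 of 1221) at 5000 nt or more. By listed length the share went from 22.5% in the shortest group to 9.32% (58 of 622) at 10000 nt or more. These shares describe the 16 samples together. Expression level differs between the isoforms compared, and its part was not tested.

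**Figure D1:**
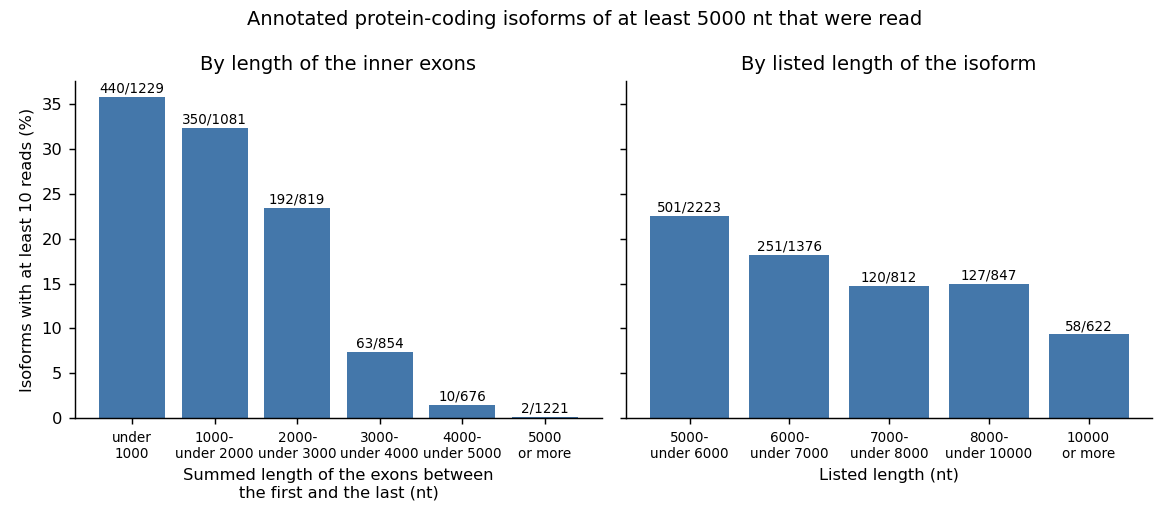
Share of annotated protein-coding isoforms of at least 5000 nt (GENCODE M21) with at least 10 reads over the 16 samples, by the summed length in nt of the exons between the first and the last (left) and by listed length in nt (right); numbers above the bars are isoforms with 10 reads over all isoforms. The share drops from 35.8% to 0.164% with inner exon length and stays between 9.32% and 22.5% across listed lengths.

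The lengths of unannotated isoforms, which come from reads, showed the reach of the libraries. ISM (incomplete splice match, a part of an annotated junction chain) isoforms had a median length of 1650 nt, NIC (new in catalog, known junctions in a new combination) 2168 nt and NNC (new not in catalog, with at least 1 unannotated junction) 1945 nt. At least 5000 nt were reached by 0.539% of ISM, 1.44% of NIC and 0.663% of NNC isoforms, and the longest was 9897 nt. In 925 genes of the very long isoforms an unannotated multi-exon isoform was listed. The longest one had a median of 4331 nt, reached 5000 nt in 257 genes and was shorter than the shortest very long isoform of the gene in 841. For 876 very long isoforms there were NIC or NNC isoforms with the same number of exons, whose median length was 42.3% of the listed length (median over the 876), under 50% for 565 and at least 90% for 45. Kif5a, a kinesin heavy chain of axonal transport, was among the latter, with 6289 nt against a listed 6310 nt. Nisch was another, with 5455.5 nt against 5559 nt. The label "very long" thus holds for the annotation of all 1028 isoforms, and for the reads it could be checked only through these unannotated relatives.

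Genes with a long coding part were read mainly as incomplete matches. Among genes with at least 10 reads, the share of reads on ISM isoforms was 6.91% where the longest annotated coding part is under 1000 nt, 41.4% at 2000 to under 3000 nt and 80.9% at 5000 nt or more. The share on known isoforms went from 87.5% to 8.38%. A very long isoform was read in 3.78% of genes at under 1000 nt, in 13.3% at 2000 to under 3000 nt and in 2.85% (16 of 561) at 5000 nt or more. Map1b, a microtubule-associated protein, had 15320 reads, of which 15102 were ISM and 0 known. Kif1a, a motor for synaptic vesicle precursors, had 4978 ISM reads and 2 known ones. Htt itself, with a longest coding part of 9360 nt, had 141 reads, 131 of them ISM and 5 known, and no very long isoform with 10 reads.

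**Figure D2:**
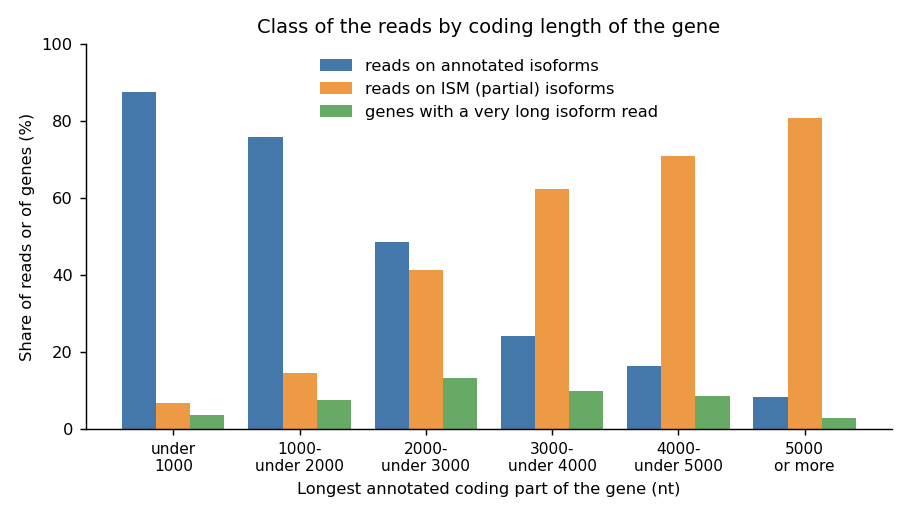
Share of reads on annotated (known) isoforms and on ISM isoforms, and share of genes in which a very long isoform had at least 10 reads, by the longest annotated coding part of the gene in nt (genes with at least 10 reads, 16 samples together). The ISM share goes from 6.91% to 80.9% and the known share from 87.5% to 8.38%, and very long isoforms are most often read at 2000 to under 3000 nt (13.3%).

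More than 50% of the very long isoforms were read less than 50 times. Reads per isoform ranged from 10 to 5058 with a median of 48, 526 isoforms had fewer than 50 reads and 35 had at least 1000. The listed length had a median of 6108 nt, 489 isoforms were of 5000 to under 6000 nt and 52 of at least 10000 nt. The isoforms nearest the length threshold were Stam (5000 nt, 89 reads), Mrpl19 (5000 nt, 358 reads) and Susd6 (5001 nt) inside it, and Tom1l2 (4999 nt), Mvb12b (4998 nt) and Mon1b (4998 nt) outside it. There were 39 isoforms with exactly 10 reads and 42 long enough with 9. In GENCODE M21, a later release than the one the authors used, 115 isoforms had another length and 20 were under 5000 nt, among them Camk4 (2717 nt, listed at 12331 nt) and Gnal ENSMUST00000076605 (3470 nt, listed at 5223 nt). By biotype 997 were protein-coding, 12 retained introns, 9 long intergenic RNAs and 5 subject to nonsense-mediated decay.

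The most read isoforms served general cell functions and neuronal ones alike. Rps15a came first, with 5058 reads. Nedd4 (3198 reads) and Cdc37 (3170) were also among the most read. Next were Snhg11 (2600), a host gene of small nucleolar RNAs, and Rgs7bp (2447), a membrane anchor of regulators of G protein signalling. The list went on with Letm1 (2331), a protein of the inner mitochondrial membrane, Rab6b (1955), a GTPase of Golgi transport, Caln1 (1936), a neuronal calcium sensor, and Sdf4 (1900), a calcium-binding protein of the Golgi lumen. The 5 longest listed isoforms were D10Wsu102e, D1Ertd622e (40378 nt, 210 reads), Gm45159 (25241 nt, 34 reads), Hnrnpr (21452 nt, 124 reads), an RNA-binding protein, and Ntrk3 (19703 nt, 58 reads), the receptor of neurotrophin-3. None of the unannotated isoforms of D1Ertd622e, Hnrnpr and Ntrk3 exceeded 5579 nt.

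Function was described with 16 gene lists holding 633 genes, of which 104 had 125 very long isoforms and 15.7% of the reads on all very long isoforms. Not every listed gene has an annotated isoform of at least 5000 nt. Of the receptor genes below 18 of 34 have one, of striatal signalling genes 12 of 36, of scaffold genes 37 of 44 and of chromatin regulators 66 of 68. Counts over all listed genes therefore do not compare the lists. Of 34 glutamate and GABA receptor genes 11 had 12 very long isoforms, led by the AMPA receptor subunit Gria2 (856 reads, 10371 nt, 3′UTR 7271 nt) and the GABA-A receptor subunit Gabrb1 (647 reads, 13737 nt, 3′UTR 12231 nt). Of 39 ion pumps and transporters 13 had 18, among them the glutamine transporter Slc38a1 (727 reads). Of 54 genes of RNA processing and translation 15 had 18, led by Hnrnpu (1077 reads) and the translation factor Eif4g2 (749 reads). Of 36 striatal projection neuron signalling genes 9 had 10, led by Gnal (773 reads), the G protein subunit that couples dopamine D1 and adenosine receptors to adenylyl cyclase, and Pde10a (306 reads), a phosphodiesterase that breaks down cyclic nucleotides.

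Of 31 sodium and calcium channel genes 1 had very long isoforms with 10 reads, the auxiliary subunit Cacnb4, whose coding part in ENSMUST00000078324 is 1557 nt of 8225 nt. The 20 genes of that list with coding parts of at least 5000 nt had 5290 reads, 85.4% of them ISM, and 0 very long isoforms. Of 44 active zone and postsynaptic scaffold genes 2 had very long isoforms (Dlgap1, 69 reads, and Rims3, 16 reads), of 68 chromatin and transcription regulators 5, and of 60 cell adhesion genes and large surface receptors 8. Of 32 motor genes 5 had one, led by Kif5a (1312 reads) and Kif3c (287 reads). Of 25 microtubule-associated protein genes 2 had 4 very long isoforms, led by Mapt (1525 reads), the gene of tau, whose coding part in ENSMUST00000106992 is 1116 nt of 5253 nt. Among 17 genes of huntingtin and its partners 5 had 6, led by the neurotrophin receptor Ntrk2 (154 reads) and Hip1r (111 reads). Potassium and HCN channels had them in 4 of 36 genes, led by Kcnc1 (604 reads) and Kcna6 (171 reads). Further lists were spectrins, ankyrins and plakins (2 of 20 genes), ubiquitin ligases and deubiquitinases (8 of 39, led by Nedd4) and protein and lipid kinases (12 of 63, led by Camk4).

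Within their genes the very long isoforms took most of the annotated reads. These genes were chosen through a very long isoform with at least 10 reads, which favours a high share. The very long isoforms are the 1028 that reached 10 reads, out of 2090 as long with at least 1 read. They held a median of 95.7% of the gene's known multi-exon reads over the 947 genes, at least 90% in 577 genes (60.9%), 50% to under 90% in 245, under 50% in 125 and under 10% in 23. In 345 genes no other known multi-exon isoform had a read. Pooled over genes they took 76.7% of known multi-exon reads, and 39.1% once ISM, NIC and NNC reads of the same genes were counted. ISM isoforms took 37.1% of the reads of these genes, against 15.9% in all genes. The highest shares among genes with at least 100 reads and both kinds were in Cdc37 (3170 of 3171 reads), Rps15a (5513 of 5517 reads, in 2 very long isoforms) and Ppp1r7 (1105 of 1106), a regulatory subunit of protein phosphatase 1. In Rps15a the annotated short isoform ENSMUST00000106588, with 5 exons and 640 nt, had 4 reads.

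A high share does not show that the reads were long. In Rps15a, Cdc37 and Ppp1r7 unannotated isoforms with the same number of exons had median lengths of 481, 1585.5 and 1314 nt. In the genes with the lowest shares most annotated reads were on shorter annotated isoforms. Snx10, a sorting nexin, had 11 of 2042 reads on a very long isoform of 2 exons (0.539%), and 1989 reads on an isoform of 2480 nt. Tcf25 had 49 of 3561 (1.38%) and Rtn3, a reticulon of the endoplasmic reticulum, 156 of 8286 (1.88%), with 7584 reads on an isoform of 2841 nt. The long isoform of Rtn3, of 9 exons, was read in all samples but cortex NT 1, at 0 to 14.0 CPM (reads per 1000000 of the normalised library) in cortex NT, 7.63 to 19.0 CPM in cortex R6/2, 11.7 to 23.5 CPM in striatum NT and 11.4 to 31.6 CPM in striatum R6/2, and these ranges overlapped. The very long isoforms took between 74.6% and 79.6% of the known multi-exon reads of their genes in every sample. With ISM, NIC and NNC reads counted as well, they took 40.5% to 45.6% in the 4 striatal samples with 2 files, 29.97% to 38.9% in the 4 with 1 and 32.0% to 37.9% in the cortex, so that the samples with 2 files lay above all others.

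Depth and cell type markers differed between the striatal samples of 1 and 2 files. Reads per sample ranged from 252885 to 1496196, with 917832 to 1496196 in the 4 striatal samples with 2 files and 317050 to 811470 in the 4 with 1. The mean listed length of reads on shorter known isoforms was 2026 to 2118 nt with 2 files, 1512 to 1770 nt with 1 and 1792 to 2024 nt in the cortex. Markers of oligodendrocytes, 10 genes that all had reads, summed to 19402 to 30234 CPM with 2 files, 11357 to 15934 CPM with 1 and 3991 to 8188 CPM in the cortex. The 6 choroid plexus markers summed to 8842 CPM in striatum NT 3 and to at most 1625 CPM elsewhere. The 12 markers of striatal projection neurons, which all had reads, summed to 8546 to 13506 CPM in NT striatum and 1955 to 3483 CPM in R6/2 striatum. In the cortex they summed to 428 to 511 CPM in NT and 132 to 167 CPM in R6/2. The striatal label thus matched its markers. Markers of microglia (9 genes) summed to 426 to 943 CPM, of endothelial cells (7) to 222 to 422 CPM and of ependymal cells (5) to 2.03 to 55.6 CPM over all samples. The part of these sums in the values below was not tested.

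The share of known multi-exon reads on very long isoforms was 2.82%, 2.44%, 2.25% and 1.60% in striatum NT 1 to 4 and 2.09%, 2.92%, 2.87% and 1.88% in striatum R6/2 1 to 4. It was 2.28%, 2.66%, 2.61% and 3.02% in cortex NT and 2.40%, 2.74%, 2.60% and 2.75% in cortex R6/2. The 95% Wilson interval, which covers counting error only, was 1.54% to 1.66% for the lowest of these samples. The genotypes overlapped in the cortex and in the striatal samples with 1 file (1.60% and 2.25% in NT, 1.88% and 2.09% in R6/2). In the striatal samples with 2 files, R6/2 (2.87% and 2.92%) lay above NT (2.44% and 2.82%), with 2 samples of each. The striatal samples with 2 files (2.44% to 2.92%) lay above those with 1 (1.60% to 2.25%), with no overlap, and the cortex (2.28% to 3.02%) lay above those with 1 and overlapped with those with 2. The 2 files of a sample gave 2.60% and 3.02% for NT 1 and 2.26% and 2.62% for NT 2. They gave 2.52% and 3.23% for R6/2 2 and 2.96% and 2.80% for R6/2 3. Each file alone lay above the samples with 1. For the first file of NT 2, at 2.26%, this was within counting error of NT 3 (2.25%, Wilson interval 2.21% to 2.3%). The gap between samples with 2 files and with 1 was wider for isoforms with inner exons of at least 2000 nt (0.444% to 0.699% against 0.157% to 0.395%). For those under 1000 nt the shares were 1.33% to 1.41% against 1.16% to 1.33%.

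**Figure D3:**
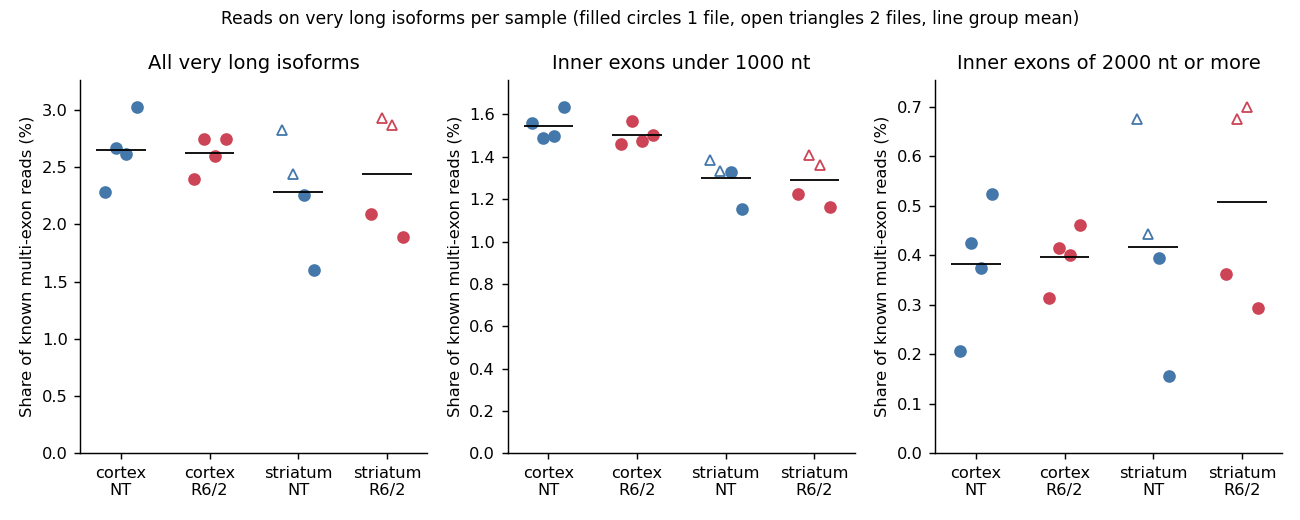
Share of known multi-exon reads (%) on the very long isoforms in each sample, for all 1028 (left), those with inner exons under 1000 nt (middle) and those with inner exons of 2000 nt or more (right), by region and genotype; filled circles are samples with 1 file of counts, open triangles samples with 2, and the line is the mean of 4 samples. Genotypes overlap in each region, and the 4 striatal samples with 2 files (2.44% to 2.92% for all isoforms) lie above the 4 with 1 (1.60% to 2.25%).

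In the R6/2 cortex, 3 very long isoforms were lower than in NT cortex and 0 were higher, out of 206 tested (edgeR quasi-likelihood test, Benjamini-Hochberg adjusted p under 0.05). Of all 5382 isoforms tested, 2.84% passed, 0.353% higher and 2.49% lower. The test covered isoforms that filterByExpr, a filter on low counts, let through, and 822 very long isoforms were not tested. All 3 code for proteins of neuronal membranes or synaptic vesicles. Their groups did not overlap, which was true of 20 of the 206 tested. The longest unannotated isoform was 3969 nt in Lypd1, 4067 nt in Kcnc1 and 3531 nt in Rab3c, shorter than the listed 6464, 7760 and 8500 nt. Whether the reads counted here reach the listed lengths is therefore not known. The median log2 difference was −0.03 for the very long isoforms and 0.01 for all isoforms tested.

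Lypd1, a membrane-bound modulator of nicotinic acetylcholine receptors (ENSMUST00000159417, mm10 chr1:125867622-125912214, 3 exons, 3′UTR 5717 of 6464 nt), was read at 183, 142, 181 and 155 CPM in cortex NT and 57.9, 64.9, 73.3 and 48.6 CPM in cortex R6/2. Every R6/2 sample was below every NT sample, and the log2 difference was −1.41 ± 0.21 (SE, edgeR adjusted p = 0.00121). In the striatum the isoform was at 177, 194, 106 and 91.7 CPM in NT and 69.9, 85.6, 130 and 56.8 CPM in R6/2. There the log2 difference was −0.73 ± 0.20 and did not pass (edgeR adjusted p = 0.0617). The whole gene, with its known, ISM, NIC and NNC reads summed, did pass (−0.72, edgeR adjusted p = 0.0315).

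Kcnc1, the potassium channel Kv3.1 of fast-spiking neurons (ENSMUST00000025202, chr7:46396497-46433354, 2 exons, 3′UTR 5046 of 7760 nt), was read at 125, 94.3, 73.2 and 118 CPM in cortex NT and 33.3, 55.3, 53.1 and 44.4 CPM in cortex R6/2. It fell by 1.16 on the log2 scale (SE 0.24, edgeR adjusted p = 0.0148), and its whole gene fell by 1.15 (edgeR adjusted p = 0.00542). Rab3c, a GTPase of synaptic vesicles (ENSMUST00000167824, 5 exons, listed at 8500 nt), was read at 148, 215, 228 and 199 CPM in cortex NT and 84.2, 103, 114 and 114 CPM in cortex R6/2. It fell by 0.93 (SE 0.20, edgeR adjusted p = 0.0207), and all 4 R6/2 samples were below all 4 NT samples. With each cortical sample left out in turn, Lypd1 passed in 8 of 8 fits, Kcnc1 in 5 and Rab3c in 2. The count was 1 without NT 4, R6/2 1 or R6/2 4. The 12 markers of cortical excitatory neurons, all with reads, summed to 468 to 806 CPM in cortex NT and 301 to 393 CPM in cortex R6/2, and the 9 of astrocytes, all with reads, to 2570 to 3886 CPM and 1685 to 2042 CPM. Those of striatal projection neurons summed to 428 to 511 CPM in cortex NT and 132 to 167 CPM in cortex R6/2. The part of these marker sums in the differences was not tested.

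In the R6/2 striatum, 9 very long isoforms were lower than in NT striatum and 0 were higher, out of 329 tested, in a fit with the number of files as a term. Of all 8548 isoforms tested, 3.61% passed, 0.491% higher and 3.12% lower. The median log2 difference was 0.06 for the very long isoforms and 0.00 for all isoforms tested. The 9 lie in cyclic nucleotide signalling (Pde10a, Adcy5), G protein signalling (Rgs7bp, Gprin3), kinases (Dclk1, Camk4), a ubiquitin ligase (Rnf165), a phosphatase subunit (Ppp1r7) and Snhg11. For 8 of them the NT and R6/2 samples did not overlap within each number of files. The same was true of 46 of the 329 tested. In each of the 9 genes the longest unannotated isoform was shorter than the listed length, from 2157 nt in Rnf165 to 6982 nt in Pde10a. Whether the reads reach the listed lengths is not known here either. The summed level of the 12 markers of striatal projection neurons was 8546 to 13506 CPM in NT and 1955 to 3483 CPM in R6/2 striatum, and its part in these differences was not tested. Pde10a and Adcy5 are themselves among those markers. Astrocyte markers summed to 2159 to 3869 CPM in NT and 1839 to 2136 CPM in R6/2 striatum. In tissue samples, fewer cells of a type and less RNA per cell cannot be told apart.

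Pde10a (ENSMUST00000089085, chr17:8801693-8986648, 22 exons, listed at 7717 nt) was read at 98.9, 88.0, 98.9 and 34.4 CPM in striatum NT and 13.0, 15.3, 20.1 and 17.04 CPM in striatum R6/2. The NT sample at 34.4 CPM had 6 reads and was still above every R6/2 sample. The log2 difference was −2.38 ± 0.30 (edgeR adjusted p = 0.000729), and for the whole gene −2.17 (edgeR adjusted p = 0.000101). In the cortex the isoform had at most 3.69 CPM. Adcy5, the main adenylyl cyclase of the striatum (ENSMUST00000114913, 21 exons, listed at 7007 nt), was read at 22.2, 28.1, 22.0 and 5.73 CPM in NT and 6.50, 6.11, 7.02 and 2.84 CPM in R6/2. NT 4, with 1 read, lay among the R6/2 samples, and the log2 difference was −1.87 ± 0.41 (edgeR adjusted p = 0.0231).

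Dclk1, a microtubule-binding kinase of the doublecortin family (ENSMUST00000070418, chr3:55461758-55539064, 14 exons, 3′UTR 5440 of 7012 nt), was read at 44.5, 38.2, 31.1 and 40.1 CPM in striatum NT and 1.62, 14.3, 16.1 and 5.68 CPM in striatum R6/2. All NT samples were above all R6/2 samples, and the isoform fell by 1.89 on the log2 scale (SE 0.36, edgeR adjusted p = 0.00992), with the whole gene lower by a log2 difference of −1.16 (edgeR adjusted p = 0.00111). In the cortex the same isoform was at 15.3, 12.04, 17.2 and 20.3 CPM in NT and 3.51, 1.91, 8.85 and 0 CPM in R6/2. It did not pass the count filter there and has no test.

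Rgs7bp (ENSMUST00000063551, chr13:104945904-105054930, 6 exons, listed at 5828 nt) was the most read of the 9, at 378, 442, 443 and 567 CPM in striatum NT and 223, 144, 201 and 224 CPM in striatum R6/2. It fell by 1.21 (SE 0.18, edgeR adjusted p = 0.00230), and no R6/2 sample reached the lowest NT sample. Snhg11 was at 224, 276, 202 and 310 CPM in NT and 128, 133, 105 and 156 CPM in R6/2, a log2 difference of −0.95 ± 0.20 (edgeR adjusted p = 0.0163). Ppp1r7 was at 150, 180, 189 and 212 CPM in NT and 119, 84.5, 106 and 88.0 CPM in R6/2, a log2 difference of −0.85 ± 0.19 (edgeR adjusted p = 0.0233). Both groups of each gene stayed apart.

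Gprin3, a neuronal effector of G proteins that acts on neurite growth, was read at 104, 125, 121 and 80.2 CPM in striatum NT and 43.9, 62.1, 57.2 and 48.3 CPM in striatum R6/2. It fell by 1.05 (SE 0.21, edgeR adjusted p = 0.0128). Camk4, a calcium- and calmodulin-dependent kinase of the nucleus, was at 110, 116, 128 and 45.9 CPM in NT and 40.6, 37.7, 54.2 and 45.4 CPM in R6/2, and NT 4, at 45.9 CPM, was close to R6/2 4, at 45.4 CPM, and below R6/2 3. It fell by 1.26 (SE 0.27, edgeR adjusted p = 0.0183). Rnf165 was at 24.7, 46.0, 20.2 and 17.2 CPM in NT and 6.50, 11.2, 12.04 and 5.68 CPM in R6/2, with a log2 difference of −1.63 ± 0.34 (edgeR adjusted p = 0.0179), and its whole gene did not pass (−1.07, edgeR adjusted p = 0.0659). For the other 8 the whole gene was lower as well.

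Pde10a, Dclk1 and Rgs7bp passed in all 8 fits that left out 1 striatal sample, and the other 6 in 2 to 4 of them. The count of 9 was 15 without NT 4, 5 without NT 3 and 3 without R6/2 2, R6/2 3 or R6/2 4. Within the samples of 1 file 0 isoforms passed (15 at an unadjusted p under 0.05, edgeR) and within those of 2 files 1 passed, with 2 samples per genotype in each. All 9 kept their direction under every alternative run.

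**Figure D4:**
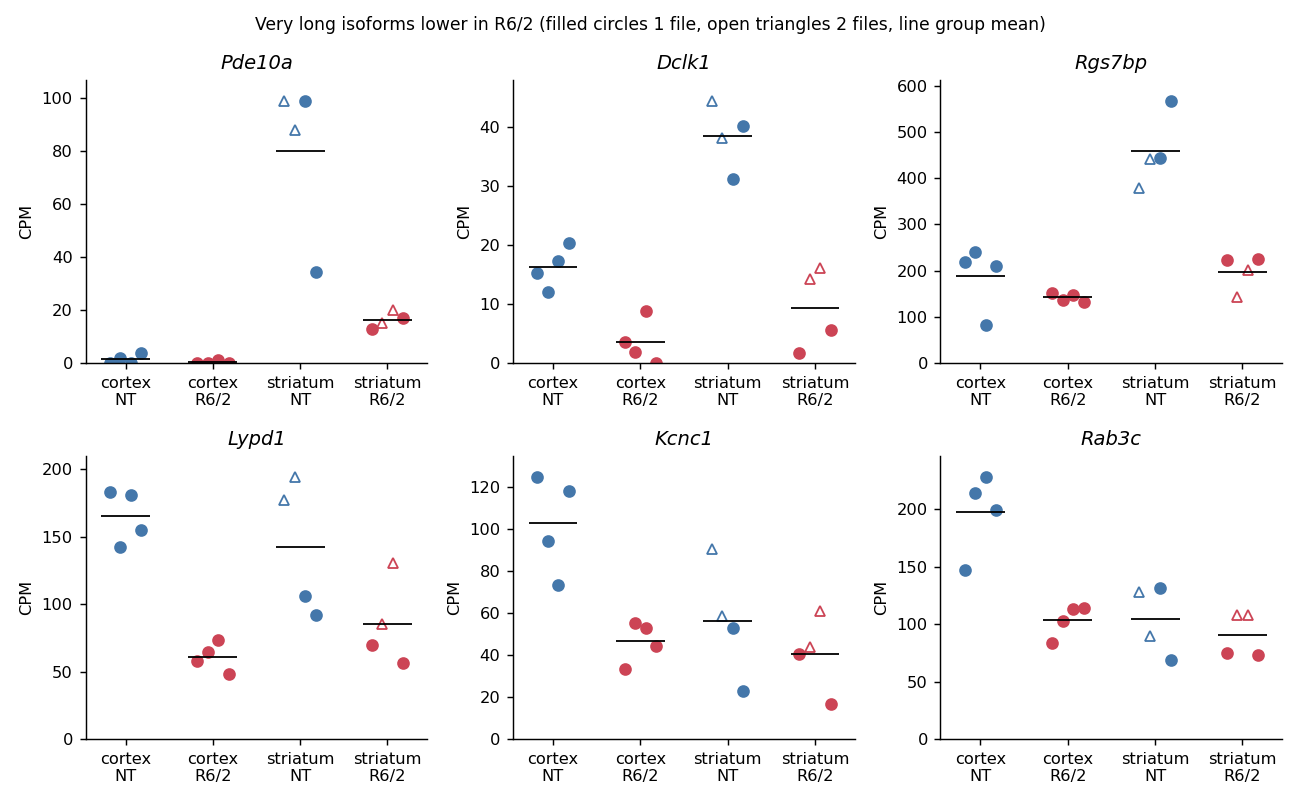
CPM of 6 very long isoforms in each of the 16 samples by region and genotype; filled circles are samples with 1 file of counts, open triangles samples with 2, and the line is the mean of 4 samples. Pde10a, Dclk1 and Rgs7bp are lower in all R6/2 than in all NT striatal samples, and Lypd1, Kcnc1 and Rab3c are lower in all R6/2 than in all NT cortical samples.

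No genotype difference of a very long isoform was shown to differ between the regions. The region by genotype term passed in 0 of 305 isoforms (14 at an unadjusted p under 0.05, edgeR, and 0 with DESeq2, 11 at an unadjusted p under 0.05), and in 0.0126% of all isoforms tested. The share within the gene did not pass for any very long isoform by genotype either. With edgeR's diffSpliceDGE, which compares an isoform with the average of its gene, 0 of 250 passed in the cortex (6 at an unadjusted p under 0.05) and 0 of 409 in the striatum (12 at an unadjusted p under 0.05), where 0.208% and 0.31% of all isoforms tested passed. In the striatum the very long isoforms tested held a median of 42.5% of their gene's known, NIC and NNC reads, and an isoform that holds nearly all of them moves the average with it. At the level of whole genes, 11 of 472 genes with a very long isoform changed in the cortex, 10 of them lower, and 30 of 635 in the striatum, 28 of them lower, against 3.23% and 4.1% of all genes tested. With 1 sample left out, the cortical count was 22 without NT 1, 5 without NT 4, 6 without R6/2 1, R6/2 2 or R6/2 3 and 7 without R6/2 4. The striatal count was 19 without NT 2 and 17, 11, 18 and 15 without R6/2 1 to 4.

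Between regions the striatal samples with 1 file were compared with the cortex, since all cortical samples had 1 file. Of 250 very long isoforms 89 differed, 15 higher in the striatum and 74 lower (edgeR, genotype as a term), against 44.2% of all 6777 isoforms tested, of which 22.5% were higher and 21.8% lower. The median log2 difference was −0.45 for the very long isoforms and −0.08 for all. Among the 89, 35 had groups that did not overlap, against 37 of all 250 tested. The striatal samples with 2 files, set against the same cortical samples, gave 87 higher and 36 lower of 301, against 43.0% of all isoforms, of which 22.6% were higher and 20.4% lower, with a median of 0.18 against −0.01. The 2 comparisons share the cortical samples, and in the second, region and number of files cannot be told apart. With the mean listed length of reads on shorter known isoforms as a covariate, the samples with 1 file gave 48 differences, 27 higher and 21 lower, so the excess of lower isoforms turned. With NT mice alone 48 passed.

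Gnal, Gprin3, Smpd3 and Rasgrp1 were among the 15 isoforms higher in the striatum. Gnal ENSMUST00000076605 was read at 5.09, 8.03, 0 and 9.23 CPM in cortex NT and 1.75, 13.4, 5.06 and 0 CPM in cortex R6/2, at 125, 74.5, 89.4 and 56.8 CPM in the striatal samples with 1 file and at 200, 121, 103 and 177 CPM in those with 2. Both striatal sets lay above the cortex, with log2 differences of 3.67 ± 0.38 (edgeR adjusted p = 1.69e-07) with 1 file and 4.64 ± 0.34 (edgeR adjusted p = 7.19e-09) with 2. Gprin3 was at 6.34 to 32.1 CPM in the cortex and 43.9 to 125 CPM in the striatum, a log2 difference of 1.92 ± 0.28 (edgeR adjusted p = 9.84e-06) with 1 file and 2.36 with 2. Smpd3, a neutral sphingomyelinase, was at 4.31 to 13.9 CPM in the cortex and 19.9 to 84.3 CPM in the striatal samples with 1 file, a log2 difference of 1.94 ± 0.34 (edgeR adjusted p = 9.70e-05). Rasgrp1, an exchange factor for Ras, had a log2 difference of 1.43 (edgeR adjusted p = 0.000806).

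Cdk14, Lpgat1, Katnal1, Rab6b and Mapt were among the 74 isoforms lower in the striatum. Cdk14, a cyclin-dependent kinase, was at 71.2, 114, 108 and 129 CPM in cortex NT and 73.7, 91.6, 59.4 and 78.3 CPM in cortex R6/2, and at 5.50, 0, 11.4 and 11.4 CPM in the striatal samples with 1 file. No striatal sample, of either kind, passed 23.5 CPM, and the log2 difference was −3.59 ± 0.36 (edgeR adjusted p = 1.20e-07) with 1 file and −2.32 with 2. Lpgat1, an acyltransferase of phospholipid synthesis, had a log2 difference of −2.49 with 1 file and −1.29 with 2. Katnal1, a subunit of a microtubule-severing enzyme, had −2.06 and −1.61, and Rab6b −1.54 and −1.36. Mapt, read at 97.4 to 128 CPM in NT and 91.0 to 112 CPM in R6/2 striatum against 121 to 310 CPM in the cortex, had −1.22 and −0.88. All of these passed in both comparisons (edgeR).

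Other differences from the cortex held for 1 kind of striatal sample. Tm9sf3, a transmembrane protein of the secretory pathway, had a log2 difference of −2.07 ± 0.38 with 1 file (edgeR adjusted p = 0.000152) and 0.05 ± 0.24 with 2 (edgeR adjusted p = 0.893). Chst2, a sulfotransferase of carbohydrates, had −2.32 with 1 file and 0.15 with 2.

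Rps15a went the other way. ENSMUST00000131374 was at 1119, 2161, 1318 and 1420 CPM in the striatal samples with 1 file, at 282, 308, 393 and 286 CPM in those with 2 and at 209 to 579 CPM in the cortex. The samples with 2 files were within the range of the cortex and those with 1 above it, for a log2 difference of 1.83 ± 0.24 with 1 file (edgeR adjusted p = 2.59e-06) and −0.21 ± 0.22 with 2 (edgeR adjusted p = 0.460). Its 4-exon isoform ENSMUST00000172457 had 2.68 and −0.71. The inner exons of these isoforms are 304 nt and 166 nt.

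**Figure D5:**
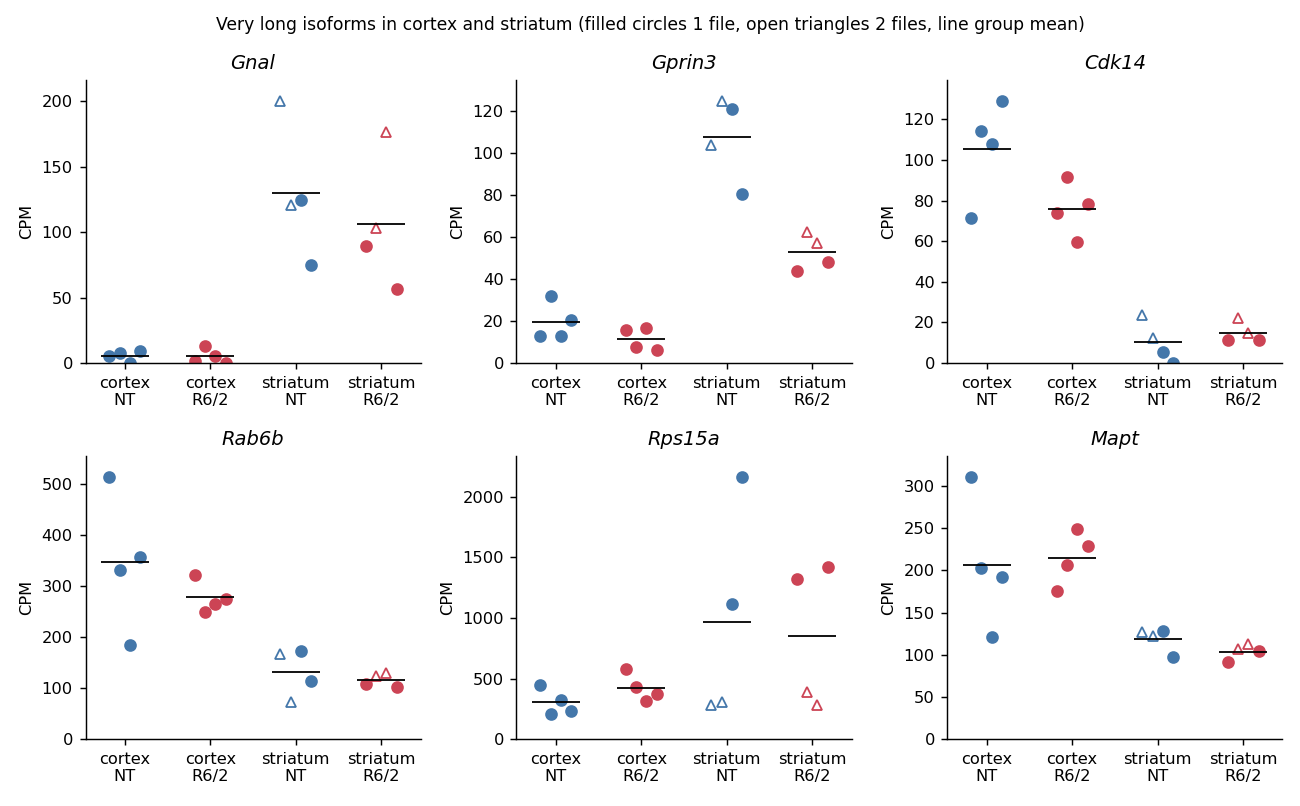
CPM of 6 very long isoforms (Gnal ENSMUST00000076605, Rps15a ENSMUST00000131374) in each of the 16 samples by region and genotype; filled circles are samples with 1 file of counts, open triangles samples with 2, and the line is the mean of 4 samples. Gnal and Gprin3 are higher and Cdk14 lower in every striatal than in every cortical sample, while Rps15a is at 1119 to 2161 CPM in the striatal samples with 1 file and at 282 to 393 CPM in those with 2.

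Within the striatum, very long isoforms were mostly higher in the samples with 2 files. Of 329 tested 74 were higher and 8 lower (edgeR, genotype as a term), against 42.9% of all 8548 isoforms, of which 17.7% were higher and 25.2% lower, and the median log2 difference was 0.59 against 0.17. By inner exon length the median was 0.33 for 159 isoforms under 1000 nt (24 higher, 8 lower), 0.71 for 100 of 1000 to under 2000 nt (27 higher, 0 lower) and 0.81 for 69 of at least 2000 nt (23 higher, 0 lower). Known isoforms under 5000 nt had medians of 0.00, 0.66 and 0.90 in the same bins. The very long isoforms lay above the shorter ones in the first bin and close to them in the other two. Without R6/2 4, 35 isoforms passed in place of 82.

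Usage within the gene differed between striatum (1 file) and cortex for 5 of 338 very long isoforms, against 1.13% of all isoforms tested (diffSpliceDGE, edgeR). Tpd52 took a larger share of its gene, with a usage log2 difference of 1.17 (edgeR adjusted p = 0.00186). Its level was 4.31 to 17.6 CPM over the cortical samples and 31.1, 34.4, 32.5 and 22.7 CPM in the striatal samples with 1 file, while its whole gene was lower in the striatum by a log2 difference of −0.66 (edgeR adjusted p = 0.00663). Nisch had a usage log2 difference of 1.86 (edgeR adjusted p = 0.0122), and its isoform had reads in 2 of 8 cortical samples and in all striatal samples but NT 4. Trim2, a ubiquitin ligase, had 2.16 (edgeR adjusted p = 0.0135) and the chemokine Cxcl12 1.79 (edgeR adjusted p = 0.0265), at no more than 17.2 CPM in any sample. Gnal ENSMUST00000025402 had −2.08 (edgeR adjusted p = 0.00333), next to the rise of ENSMUST00000076605. Without striatum R6/2 1, 2 of the 5 passed, and 3 without striatum NT 3.

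In Kif5a the very long isoform and the whole gene, with its known, ISM, NIC and NNC reads summed, gave different results. Whether isoform and gene differ from each other between regions was not tested. The isoform was at 45.8 to 135 CPM in the cortex and 148, 40.1, 128 and 96.5 CPM in the striatal samples with 1 file, a log2 difference of 0.13 ± 0.27 (edgeR adjusted p = 0.714). The whole gene was lower in these samples, with a log2 difference of −1.51 (edgeR adjusted p = 1.71e-06). In the striatal samples with 2 files the isoform was at 194, 141, 184 and 236 CPM, above every cortical sample, with a log2 difference of 1.10 ± 0.20 (edgeR adjusted p = 0.000263), and the whole gene was lower, with −0.73 (edgeR adjusted p = 0.00194).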

How the data were processed

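RNA of the cortex and striatum was copied to full-length cDNA and sequenced on a PacBio Sequel II. The authors aligned reads to mm10 with minimap2 2.17-r941 and counted them per isoform with TALON 5 on Ensembl 87. The deposited values are raw counts in 20 unfiltered files, and pairs of files were summed for 4 samples. Isoforms were tested with edgeR 4.0.16 (TMM scaling, filterByExpr, quasi-likelihood test, R 4.3.3) on known, ISM, NIC and NNC isoforms together, adjusting over all of them at 0.05, with the number of files as a term in the striatum and genotype as a term between regions. CPM was computed per 1000000 TMM-scaled reads of those classes, and marker sums per 1000000 gene reads. DESeq2 1.42.0, other filters, covariates and sample sets were alternatives. Structure and sequences came from GENCODE M21. Members, the 16 function lists and the marker lists were chosen with earlier results of these data known. Genes named by rule were the most read, the longest, those most changed without overlap among those passing, those with usage calls, the leading genes of each list, the extremes of gene share, those at the threshold and Htt. Others, among them Adcy5, Ift172, Cltc, Zfp292, Nes, Map1b, Kif1a and isoforms set between kinds of striatal samples, were chosen after their values were seen. The edgeR steps were tested on simulated counts with a fixed spread and no difference between 1 and 2 files. That run does not show how often real changes of these isoforms are missed. Some items, 1 function list among them, are not reported here.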

Additional observations from a re-analysis of the deposited data

Results flagged for a closer look

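The shares per sample and the isoforms that passed in a comparison they were named for gave 96 groups of 4 samples. In 4 of them a sample stood apart from the other 3 by Dixon's test, which chance does in about 1 in 20 groups. Chst2 was at 81.8 CPM in striatum NT 2 and at 0 to 7.42 CPM in the other NT striatal samples. Pde10a was at 34.4 CPM in striatum NT 4, against 88.0 to 98.9 CPM in the others. In cortex R6/2, Pde10a was at 1.26 CPM in replicate 3 and Adcy5 at 3.51 CPM in replicate 1, with 0 in the other 3 samples of each.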

How the results depend on the processing

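Counts of isoforms that passed moved with the setting, and the cause was not tested. With no filter on low counts 0 passed in the cortex (94 at an unadjusted p under 0.05, edgeR, and 3 with DESeq2 under the filter), 3 in the striatum and 58 between regions (1 file). With mean length as a covariate the counts were 5, 14 and 48, the last with the direction turned, and usage between regions gave 0 (21 at an unadjusted p under 0.05, edgeR). From 4000 nt, a larger set of isoforms, they were 9, 15 and 187, and from 6000 nt, a smaller set, 57 passed between regions. The number tested changes with these limits, so such counts do not compare the size of effects. The striatal count was 14 with known isoforms only, 1 without the term for files and 14 with all 16 samples in 1 fit. It was 0 in samples of 1 file and 1 in samples of 2, a split chosen after seeing the data. Between regions, NT mice alone gave 48, and the striatal samples with 2 files gave 123 with the direction turned. Of single isoforms, those samples turned the log2 difference to −0.21 (Rps15a ENSMUST00000131374), −0.71 (Rps15a ENSMUST00000172457), 0.27 (Letm1), 0.047 (Tm9sf3) and 0.15 (Chst2).

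The median share of reads per sample, 2.61%, was 1.81% with ISM, NIC and NNC reads in the denominator, 6.84% from 4000 nt and 1.34% from 6000 nt. The median share of the gene, 76.9%, was 37.4% with those classes. In the samples with 2 files the share was 2.56% with the first file only and 2.84% with both.

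With 1 sample left out, 1 to 4 isoforms passed in the cortex, 3 to 15 in the striatum, 77 to 100 between regions with 1 file and 96 to 143 with 2, and 35 to 99 between 2 files and 1. Usage gave 0 to 0 for each genotype comparison and 2 to 6 between regions, and the region by genotype term 0 to 0. Genes passed in 5 to 22, 11 to 34 and 176 to 215. Leaving out samples and DESeq2 in the comparisons of 2 files, in the region by genotype term and in whole genes were added after seeing the data.

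Whether samples of the same replicate number are paired could not be decided. Deviations were taken from the mean of all 4 samples of a group, so striatal ones hold the difference between 1 and 2 files. Between NT and R6/2 striatum the correlations of deviations were −0.63 and −0.47 where the number of files differed. Where it was the same they were 0.56 and 0.70. In no pair of groups were all 4 correlations over 0.1. They ran from −0.09 to 0.25 in the cortex, −0.63 to 0.70 in the striatum, −0.34 to 0.27 between regions in NT and −0.07 to 0.46 in R6/2 (3 of 4 over 0.1). With the replicate number as a block, 3 isoforms passed in the cortex, 6 in the striatum and 73 between regions, and usage gave 0, 0 and 2.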
